A study of Arabidopsis thaliana with 12 samples.

Results

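Ribosome footprints at high boron were compared with those at the standard boron supply in shoots of Arabidopsis thaliana. The comparison takes every gene of the footprint table and its 4 libraries of these groups, of 12 libraries in the whole series. Counts were given for 27655 genes, of which 17697 (those that passed the filter on low counts) were tested. All plants were wild type of the ecotype Col-0, with no transgene, and carried the same treatment apart from the boron of the medium. High boron was 500 µM boric acid and Ctrl was 30 µM, both in MGRL medium with sucrose, and whole shoots were taken at 14 days. Another group at 0.3 µM boric acid (low boron) was in the same fit. It entered the estimate of spread, the scaling and the filter on low counts. Its own changes are given for a few genes only. Each library pooled about 300 plants, and RNA-seq libraries of the same groups gave mRNA levels. The libraries are numbered 2 and 3 in each group, as in the count table.

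Boron holds the pectin rhamnogalacturonan II together in the plant cell wall and is needed in small amounts, while an excess injures the leaves in which it accumulates. Boric acid enters cells through channels of the NIP family and is loaded into the xylem or exported by transporters of the BOR family. A footprint is the piece of mRNA that a ribosome protects from nuclease, so the footprint count of a coding sequence reflects both how much mRNA there is and how many ribosomes sit on each copy.

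The 2 high-boron footprint libraries held 13351151 and 7446195 counts and the 2 Ctrl libraries 12274466 and 6903881. Levels are CPM, counts scaled to library size with TMM, and a gene's CPM is not divided by its length. Across genes, the log2 CPM of the 2 libraries correlated at r = 0.988 for high boron and 0.987 for Ctrl, genes not being independent replicates. Chloroplast-encoded genes took 8.14% and 2.79% of the footprints in high-boron libraries 2 and 3, and 4.91% and 4.04% in Ctrl, so the high-boron libraries lay on both sides of Ctrl. The nuclear photosynthesis list, the check of the labelled shoot tissue, held 88256 and 117011 CPM in the high-boron libraries and 102024 and 106167 CPM in Ctrl. The 12 root markers summed to 8.88 and 7.13 CPM at high boron and 5.56 and 6.75 CPM in Ctrl, and only 2 of them passed the filter. Of the tested root, seed, stomatal, vascular, meristem, flower and epidermis markers, 0 were called in either direction by edgeR.

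Footprints of 82 genes were higher at high boron (0.463% of the genes tested) and those of 268 genes were lower (1.51%), with edgeR's quasi-likelihood test and a Benjamini-Hochberg adjusted p under 0.05. The lower genes included regulators of salicylate defence, receptor-like kinases and proteins, boron transporters and clock genes. The higher genes included BAM5, the P450 gene CYP81D11, jasmonate-responsive storage proteins and the flavonoid enzymes TT4 and DFR. At least 2-fold changes were called for 55 higher and 178 lower genes, and the median log2 fold change was 1.22 over the higher genes, -1.15 over the lower genes and 0.01 over all genes tested. The 82 higher genes took 0.502% and 0.591% of the footprints in the high-boron libraries and 0.244% and 0.285% in Ctrl. The 268 lower genes took 0.929% and 1.02% in the high-boron libraries and 2.2% and 2.02% in Ctrl. For every called gene the libraries of the 2 groups did not overlap. Over all genes tested, both high-boron libraries stood above both Ctrl libraries for 18.3% and below them for 18.0%. With 2 pooled libraries a group, p-values measure the spread between these samples only. In whole shoots, a lower share of a cell type and less RNA or fewer ribosomes per cell cannot be told apart.

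**Figure D1:**
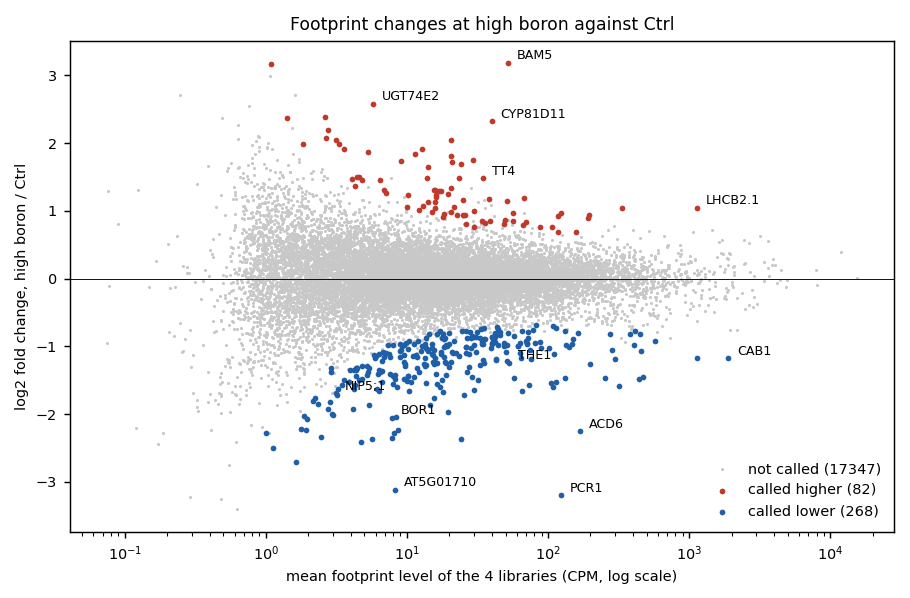
Each point is 1 of the 17697 genes tested, with its mean footprint level over the 2 high-boron and 2 Ctrl libraries (CPM, log axis) and its log2 fold change, high boron over Ctrl. The 82 genes called higher are red and the 268 called lower are blue, and the lower genes reach -3.20 for PCR1 and the higher ones 3.18 for BAM5.

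How many genes were called depended on single libraries. Without Ctrl library 2, 18 higher and 122 lower genes were called, and without high-boron library 2, 37 and 94. Of the genes called with all libraries, 13 higher and 62 lower were called under every alternative apart from the strict filter on low counts. The 13 were BAM5, CYP81D11, UGT74E2, GSTU1, GSTU24, GBSS1, RD20, ChlAKR, AT3G21670, AT4G19430, TT4, VSP1 and PORA.

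BAM5, a beta-amylase that acts outside the chloroplast, showed the largest rise. It had 106 and 79.9 CPM at high boron, against 6.95 and 14.4 CPM in Ctrl. The 2 groups were far apart, although the Ctrl libraries themselves differed. The log2 fold change was 3.18 ± 0.32 (SE, n = 2 each; adjusted p = 9.9e-05 by edgeR), and the mRNA change was 3.15. GBSS1, the starch synthase that makes amylose, was also higher, with 32.5 and 36.5 CPM at high boron and 15.8 and 15.0 CPM in Ctrl. In the starch and sugar list of 15 genes these 2 were called higher and ATBFRUCT1, a cell wall invertase, was called lower at -0.76. The shares over all genes tested were 0.463% higher and 1.51% lower. The call of ATBFRUCT1 was lost in each of the 6 fits that left out a footprint library.

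CYP81D11, a cytochrome P450 known to be induced by xenobiotics, had 83.2 and 48.4 CPM at high boron and 8.67 and 18.8 CPM in Ctrl (log2 fold change 2.32 ± 0.32, adjusted p = 0.0011 by edgeR). UGT74E2, which glucosylates the auxin indole-3-butyric acid, had 10.1 and 9.46 CPM at high boron and 1.55 and 1.76 CPM in Ctrl, a log2 fold change of 2.58 ± 0.33. Both were high in both high-boron libraries and their mRNA was called higher too, at 2.95 for CYP81D11 and 2.60 for UGT74E2. GSTU1 and GSTU24, tau-class glutathione transferases, rose by 1.92 and 1.74 on the log2 scale. ChlAKR, a chloroplast aldo-keto reductase, had 29.5 and 34.7 CPM at high boron and 8.99 and 9.24 CPM in Ctrl. The members of these families did not move as a block. Of the 16 tested glutathione transferases in the list, 2 were called higher and GSTF7 was called lower at -0.98, and the list median was -0.18. Without Ctrl library 2 or without high-boron library 2 GSTF7 was not called (adjusted p = 0.11 in both, edgeR). Of 114 cytochrome P450 genes tested, 3 were called higher and 0 lower (edgeR, with a median of 0.13), and of 45 UGT genes 2 were higher and 1 lower. These counts stand beside 0.463% called higher and 1.51% called lower over all genes tested. CYP81D11 was, without Ctrl library 2, the only P450 call of the 3 that held (adjusted p = 0.36 for CYP89A5 and 0.35 for CYP89A9, edgeR), and UGT73C1, the other higher UGT gene, was lost without any 1 of the 4 libraries. Both families were gathered by symbol after the values were seen.

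RD20, a lipid droplet protein induced by drought and abscisic acid, had 33.4 and 31.0 CPM at high boron and 10.1 and 9.24 CPM in Ctrl (log2 fold change 1.73 ± 0.22, adjusted p = 0.00072 by edgeR). It was the only called member among 33 tested genes of the abscisic acid, drought and cold list, whose median was 0.20. Of all genes tested, 0.463% were called higher and 1.51% lower. AT3G21670, named NPF6.4 in RefSeq and a member of the nitrate and peptide transporter family, had 40.0 and 34.1 CPM at high boron and 12.3 and 10.7 CPM in Ctrl. Both genes were about evenly raised in the 2 high-boron libraries. NRT1.5, which loads nitrate into the xylem, had 59.0 and 45.5 CPM at high boron and 18.0 and 29.3 CPM in Ctrl, and without Ctrl library 2 its adjusted p was 0.21, and without high-boron library 2 it was not called either (edgeR). SAG29, a sucrose exporter that rises in senescing leaves, had 4.37 and 6.30 CPM at high boron and 1.31 and 1.32 CPM in Ctrl. PHT1;5, a phosphate transporter, had 4.22 and 4.39 CPM at high boron and 0.818 and 1.32 CPM in Ctrl. Both stood above Ctrl at low levels. The calls of SAG29 and PHT1;5 were lost without Ctrl library 2 (adjusted p = 0.29 and 0.25, edgeR) and in 2 or more other fits that left out a library. The remaining rises among the 12 largest of genes averaging at least 2 CPM were genes with no name in RefSeq. Among them, AT4G19430 had 31.8 and 34.4 CPM at high boron and 8.99 and 6.75 CPM in Ctrl.

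**Figure D2:**
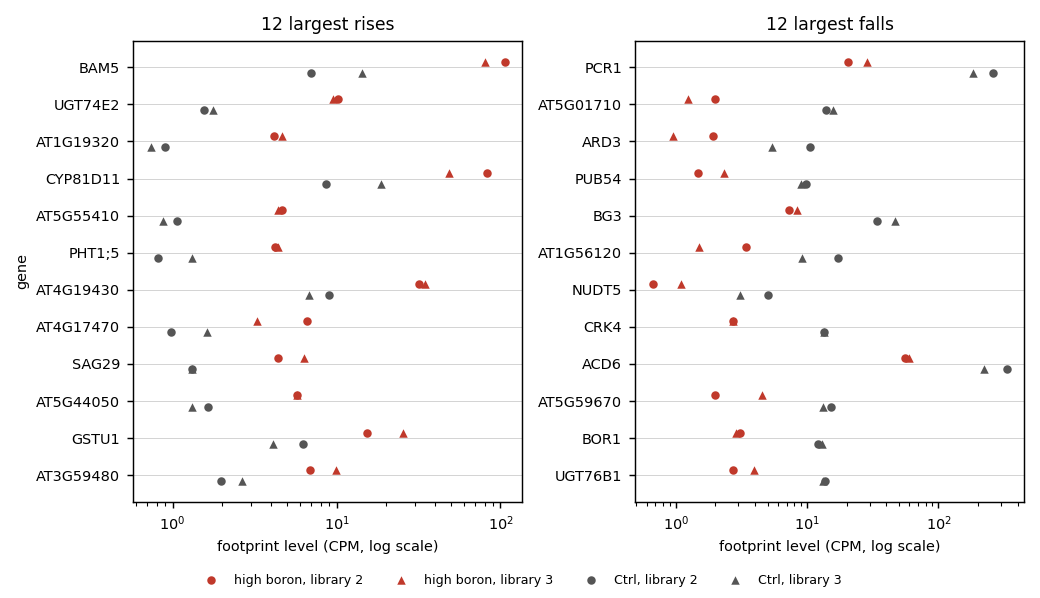
Footprint level (CPM, log axis) of the 12 genes with the largest rises (left, mean of at least 2 CPM) and the 12 with the largest falls (right), with 1 point for each high-boron library (red) and each Ctrl library (grey). For all 24 genes the 2 groups do not overlap, as the rule that chose them required. BAM5 lies at 79.9 and 106 CPM at high boron against 6.95 and 14.4 CPM in Ctrl.

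PCR1, a small membrane protein known for cadmium resistance, fell most. It had 20.4 and 28.4 CPM at high boron, against 259 and 184 CPM in Ctrl. Both high-boron libraries were far below both Ctrl libraries, with a log2 fold change of -3.20 ± 0.23 (adjusted p = 4.8e-06 by edgeR). Its neighbour in locus order, PCR2, was called lower at -1.86. ACD6, an ankyrin-repeat membrane protein that promotes salicylate signalling and cell death, had 56.0 and 60 CPM at high boron and 331 and 222 CPM in Ctrl (log2 fold change -2.25 ± 0.21). BG3, a beta-1,3-glucanase of the pathogenesis-related kind, had 7.25 and 8.36 CPM at high boron and 34.2 and 46.4 CPM in Ctrl. UGT76B1, which glucosylates immune signals including salicylate, had 2.74 and 3.97 CPM at high boron and 13.6 and 13.2 CPM in Ctrl. The footprint calls of PCR1, ACD6 and BG3 held under every alternative, and that of UGT76B1 under every alternative but the strict filter, which did not test it. Their mRNA was called lower as well, at -3.06 for PCR1, -2.31 for ACD6, -2.22 for BG3 and -1.10 for UGT76B1. The mRNA call of UGT76B1 was lost without Ctrl RNA library 3 (adjusted p = 0.085, edgeR) or high-boron RNA library 2 (0.17), with 2 groups only (0.077) and with limma voom (0.060). ARD3, an acireductone dioxygenase of methionine salvage, fell by 2.41 on the log2 scale and NUDT5, a Nudix hydrolase, fell by 2.33. Without Ctrl library 2 neither was called (adjusted p = 0.11 and 0.14, edgeR), and NUDT5 was not called without high-boron library 2 either (0.11).

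Salicylate is the hormone that drives defence against pathogens feeding on living cells. Of 23 genes of salicylate synthesis and signalling, all of them tested, 10 were called lower and 0 higher in footprints (edgeR). Of all genes tested, 1.51% were called lower and 0.463% higher. The list median was -0.85, against 0.01 over all genes tested. For 19 of the 23 both high-boron libraries lay below both Ctrl libraries, beside 18.0% of all genes tested. In mRNA 17 were called lower and 0 higher, beside 838 lower genes (4.55%) and 829 higher genes (4.50%) of the 18403 tested. The 10 genes include biosynthetic enzymes and transcription factors. Other listed members were not called, among them EDS5, PBS3, PAD4, SAG101, SARD4 and NPR1. FMO1, which makes the systemic signal N-hydroxypipecolate, had 4.74 and 3.84 CPM at high boron and 12.7 and 11.7 CPM in Ctrl (log2 fold change -1.49 ± 0.24, adjusted p = 0.0040 by edgeR). SARD1, a transcription factor that activates salicylate synthesis, had 18.9 and 23.0 CPM at high boron and 52.2 and 43.6 CPM in Ctrl. CBP60G, its close relative, had 16.8 and 18.0 CPM at high boron and 37.8 and 37.0 CPM in Ctrl. For each of these genes the values of the 2 groups stayed apart by a wide margin.

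EDS16, the isochorismate synthase that makes the salicylate precursor, had 27.8 and 40.7 CPM at high boron and 64.2 and 70.7 CPM in Ctrl. EDS1, the lipase-like regulator upstream of it, had 28.6 and 28.2 CPM at high boron and 57.3 and 48.0 CPM in Ctrl. A neighbouring locus, AT3G48080, was also called lower, at -0.96, and the sources used here do not say how reads shared by near-identical neighbours were assigned. WRKY54, WRKY46 and WRKY70, transcription factors of the same response, changed by -1.31, -1.08 and -0.81. ALD1, which starts the synthesis of N-hydroxypipecolate, and NIMIN1, a protein that binds the salicylate receptor NPR1, completed the 10 at -2.01 and -1.85. The classical output genes of the pathway were not called in footprints. PR1 had 425 and 460 CPM at high boron and 317 and 396 CPM in Ctrl, the opposite order from the regulators. BGL2 (PR2) had 83.1 and 126 CPM at high boron and 103 and 152 CPM in Ctrl, and PR5 had 28.7 and 49.7 CPM at high boron and 39.6 and 48.9 CPM in Ctrl, so for both the groups overlapped. Leaving out 1 library left between 4 (without high-boron library 2) and 11 called members. Leaving out Ctrl library 2 gave 5. WRKY54, SARD1 and CBP60G kept their calls in every alternative. FMO1 kept its call in every alternative but the strict filter, which did not test it, and the other 6 lost theirs in at least 2 of the fits that left out a library.

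**Figure D3:**
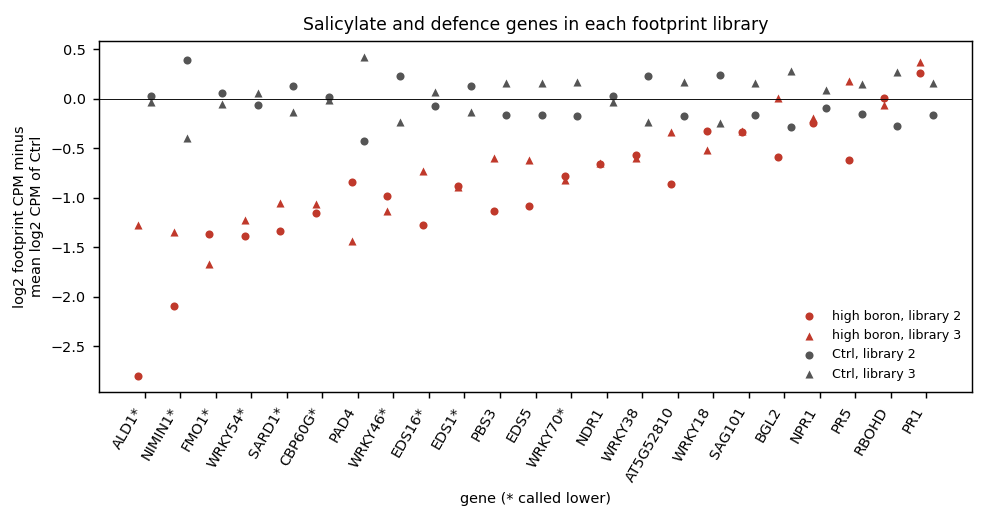
Footprint level of each of the 23 salicylate and defence genes in each library, as log2 CPM minus the mean log2 CPM of the 2 Ctrl libraries. High-boron libraries are red and stand left of the grey Ctrl libraries, and the 10 genes marked with a star were called lower. The genes run from ALD1, with the lowest log2 fold change (-2.01), to PR1 with the highest (0.31).

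Receptors at the cell surface showed a like pattern of counts. Cysteine-rich receptor-like kinases (CRK) are a family of transmembrane kinases, many of them induced by pathogens and salicylate. Of 36 tested CRK genes 8 were called lower and 0 higher (edgeR), beside 1.51% and 0.463% of all genes tested. The median was -0.64. For 28 of the 36 both high-boron libraries lay below both Ctrl libraries, beside 18.0% of all genes tested. CRK4 had 2.74 CPM in each high-boron library and 13.4 and 13.3 CPM in Ctrl (log2 fold change -2.28 ± 0.23, adjusted p = 9.9e-05 by edgeR). It kept its call under every alternative but the strict filter, which left it untested. CRK5, CRK6 and CRK7 are neighbours in locus order, as are CRK13, CRK14 and CRK15, and all 6 were called lower, between -0.81 for CRK13 and -1.13 for CRK7. Without high-boron library 2 only 1 CRK gene was called, and without Ctrl library 2 or 3 there were 4.

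Receptor-like proteins (RLP) carry leucine-rich repeats outside the cell and no kinase domain, and several recognise molecules of microbes. Of 41 tested RLP genes 8 were called lower and 0 higher (edgeR), with a median of -0.43. RLP23, which recognises a peptide of microbial necrosis-inducing proteins, had 16.4 and 17.1 CPM at high boron and 47.8 and 46.2 CPM in Ctrl (log2 fold change -1.49 ± 0.18, adjusted p = 0.00043 by edgeR). Without Ctrl library 2 the RLP count was 2 and without high-boron library 2 it was 3. Of 52 WRKY genes 4 were called lower and 0 higher (edgeR), and the count was 1 without Ctrl library 2 or without high-boron library 3. Called WRKY genes were WRKY51, WRKY54, WRKY46 and WRKY70, and all but WRKY51 were also counted in the salicylate list. The CRK, RLP and WRKY families were gathered by symbol after the values were seen. Their counts, and those of neighbours below, stand beside 1.51% called lower and 0.463% called higher over all genes tested. Over the 268 lower genes, 28 had a called lower gene beside them in locus order, and of 356 tested neighbours 30 were called lower (8.43%). Over the 82 higher genes only VSP1 and VSP2 were such neighbours. Neighbouring genes of 1 family can share reads, and their part in these counts was not tested.

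**Figure D4:**
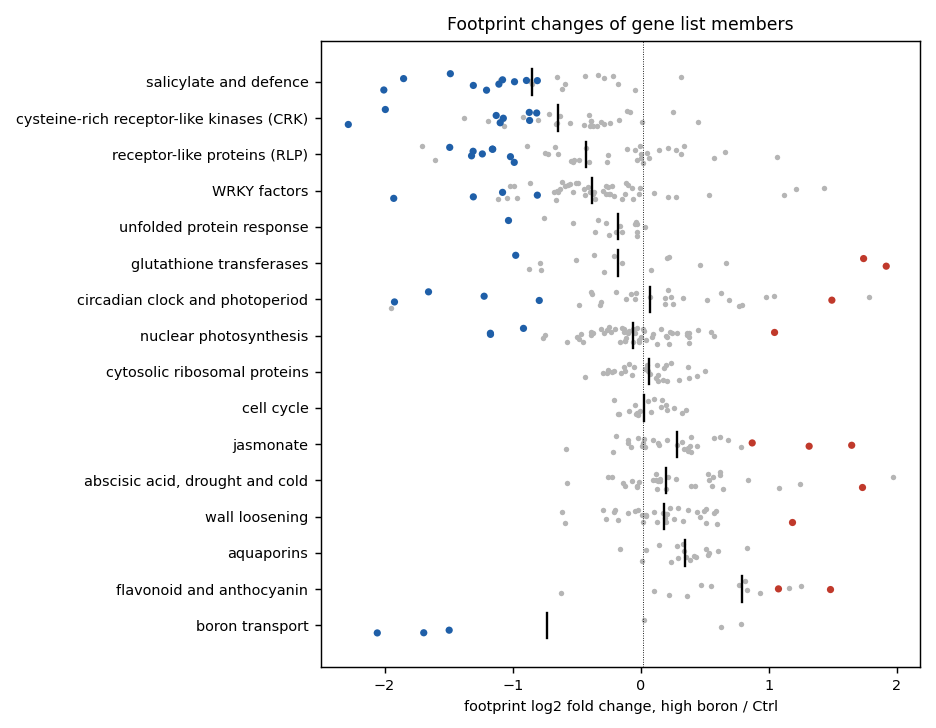
Footprint log2 fold change (high boron over Ctrl) of every tested member of 16 gene lists, with called members red (higher) or blue (lower), list medians as black bars and the median of all 17697 tested genes (0.01) as a dotted line. The salicylate list has the lowest median (-0.85) of the lists drawn, and the flavonoid list the highest (0.79).

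Of the 11 listed genes of boron transport, 6 passed the filter. Of these, 3 were called lower and 0 higher (edgeR), beside 1.51% and 0.463% of all genes tested. BOR1, the exporter that loads boron into the xylem, had 3.11 and 2.88 CPM at high boron and 12.2 and 13.1 CPM in Ctrl (log2 fold change -2.06 ± 0.24, adjusted p = 0.00043 by edgeR). AT3G62270, named BOR2 in RefSeq and a close relative of BOR1, had 2.37 and 1.23 CPM at high boron and 5.64 and 5.13 CPM in Ctrl. NIP5;1, a channel that takes boric acid into cells, had 1.48 and 1.51 CPM at high boron and 5.07 and 4.55 CPM in Ctrl. For all 3 genes both high-boron libraries were lower. BOR1 kept its call under every alternative but the strict filter, where its counts were too low to be tested. NIP5;1 was not called without Ctrl library 2 (adjusted p = 0.098, edgeR) or without high-boron library 2 (0.088), and BOR2 was lost in each fit that left out a library of either group. Without Ctrl library 2 or without high-boron library 2 only BOR1 was called. NIP6;1, the channel that passes boron to young leaves, had 14.7 and 15.8 CPM at high boron and 9.73 and 9.98 CPM in Ctrl. Its groups did not overlap, yet it was not called (log2 fold change 0.62, adjusted p = 0.20, edgeR). BOR5 and AT3G06450 had log2 fold changes of 0.78 and 0.03 and were not called. BOR4, an exporter known for boron tolerance, NIP7;1, TIP5;1, AT5G25430 and AT4G32510 stayed at or below 0.327 CPM in these libraries and were not tested.

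The low-boron group shares its Ctrl libraries with this comparison, so the changes are not independent and are given side by side. Footprints of NIP5;1 changed by -1.69 at high boron and 4.32 at low boron, and those of BOR1 by -2.06 and 0.41. Of 3 genes known to carry an AUG-stop in the leader, NIP5;1 and SKU5, a cell expansion protein, were called lower at high boron. The shares over all genes tested were 1.51% lower and 0.463% higher. SKU5 had 207 and 194 CPM at high boron and 336 and 369 CPM in Ctrl, and its call was lost without any 1 of the 4 libraries (adjusted p = 0.064 to 0.093, edgeR). ABS2 had 10.4 and 14.3 CPM at high boron and 10.8 and 10.4 CPM in Ctrl, with groups that overlap. The list of conserved upstream reading frames had a median of 0.30 over 12 tested genes. Both high-boron libraries lay above both Ctrl libraries for 5 and below for 2, beside 18.3% and 18.0% of all genes tested. In mRNA 6 of 14 were called higher and 0 lower, beside 4.50% and 4.55%. Of 12 tested genes with conserved upstream reading frames only BZIP53, a bZIP transcription factor, was called, at -1.51 (adjusted p = 0.015, edgeR), and it was not called once Ctrl library 2 (0.29) or high-boron library 3 (0.075) was left out.

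Jasmonate, the hormone of wounding and herbivore defence, often opposes salicylate. Of 31 tested jasmonate genes 3 were called higher and 0 lower in footprints (edgeR), beside 0.463% and 1.51% of all genes tested. The median was 0.28, and in mRNA 0 were called higher and 1 lower of 30. PDF1.3, a relative by name of the listed PDF1.2, was not on the list and was called lower in footprints at -1.24 (adjusted p = 0.020, edgeR). VSP1, a vegetative storage protein and a common marker of the response, had 18.8 and 24.3 CPM at high boron and 7.44 and 6.01 CPM in Ctrl (log2 fold change 1.65 ± 0.23, adjusted p = 0.0015 by edgeR). VSP2 had 22.8 and 21.5 CPM at high boron and 8.67 and 9.24 CPM in Ctrl. Both were above Ctrl in each high-boron library, and the 2 genes are neighbours of similar sequence. TIFY7 (JAZ9), a repressor of the pathway, had 66.3 and 61.8 CPM at high boron and 35 and 35.2 CPM in Ctrl. VSP1 kept its call under every alternative, and without Ctrl library 2 VSP2 and TIFY7 did not (adjusted p = 0.11 for both, edgeR). TIFY7 was also lost without Ctrl library 3 (0.064) and without high-boron library 2 (0.085). The mRNA estimates of the 3 genes were 0.79, 0.55 and 0.32, not called. Footprints relative to mRNA were not called for them either, so a difference between the assays was not shown.

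Flavonoids are pigments and sunscreens made from phenylalanine. Of 14 tested flavonoid and anthocyanin genes 2 were called higher and 0 lower in footprints, beside 0.463% and 1.51% of all genes tested. The median was 0.79. For 10 both high-boron libraries lay above both Ctrl libraries, beside 18.3% of all genes tested. TT4, the chalcone synthase that opens the pathway, had 46.6 and 55.5 CPM at high boron and 16.5 and 20.2 CPM in Ctrl (log2 fold change 1.48 ± 0.19, adjusted p = 0.00072 by edgeR). DFR, the reductase that leads towards anthocyanins, had 19.1 and 16.0 CPM at high boron and 7.93 and 8.95 CPM in Ctrl. Footprints of both were roughly evenly high in the high-boron libraries, whereas their mRNA did not follow. The mRNA of TT4 was 15.3 and 19.5 CPM at high boron and 14.7 and 15.7 CPM in Ctrl. That of DFR was 4.24 and 4.76 CPM at high boron and 5.98 and 6.80 CPM in Ctrl. Both were among the 6 genes (0.0347% of 17306) called higher in footprints relative to mRNA, by 1.28 ± 0.26 for TT4 and 1.58 ± 0.32 for DFR (adjusted p = 0.028 for both, edgeR). These calls rest on few libraries: for TT4 the adjusted p ranged up to 0.20 and for DFR up to 0.18 over the alternatives. The call of TT4 was lost without Ctrl footprint library 2, high-boron footprint library 3 or any 1 of the 4 RNA libraries of the 2 groups. The DFR footprint call was lost without Ctrl library 2 (0.24), Ctrl library 3 (0.074) or high-boron library 2 (0.18).

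The circadian clock orders gene expression over the day, with CCA1 peaking around dawn and TOC1 around dusk. Of 31 tested clock and photoperiod genes 1 was called higher and 4 lower in footprints, beside 0.463% and 1.51% of all genes tested. In mRNA 9 were higher and 10 lower, beside 4.50% and 4.55%. CCA1, a morning repressor, had 6.96 and 6.44 CPM at high boron and 2.21 and 2.64 CPM in Ctrl. TOC1, which represses CCA1, had 11.0 and 13.6 CPM at high boron and 23.1 and 34.3 CPM in Ctrl. PRR3, a relative of TOC1, had 1.85 and 1.51 CPM at high boron and 6.21 and 6.89 CPM in Ctrl. In all 3 genes the groups stood apart, and the mRNA was called in the same direction, at 1.85 for CCA1, -0.54 for TOC1 and -0.70 for PRR3. JMJD5 and ELF4 were the other 2 lower members, at -1.66 and -0.79. The sources used here do not give the hour of harvest of each group, and its part in these values was not tested. None of the 5 footprint calls held in every fit that left out a library, and without high-boron library 2 the list had 0 lower members.

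Among 57 nuclear photosynthesis genes, all tested, 1 was called higher and 3 lower, beside 0.463% and 1.51% of all genes tested. The list median was -0.06. GAPA, a glyceraldehyde-3-phosphate dehydrogenase of the Calvin cycle, had 695 and 711 CPM at high boron and 1632 and 1541 CPM in Ctrl (log2 fold change -1.17 ± 0.20, adjusted p = 0.0059 by edgeR). It kept its call under every alternative. CAB1, a light-harvesting protein of photosystem II, had 788 and 1524 CPM at high boron and 2673 and 2540 CPM in Ctrl. LHCB2.1, another light-harvesting protein, had 1119 and 1930 CPM at high boron and 728 and 750 CPM in Ctrl. Footprints of these 2 antenna genes were called in opposite directions, with high-boron library 3 above library 2 in both. Neither call was stable: without Ctrl library 2 the adjusted p was 0.19 for CAB1 and 0.24 for LHCB2.1, and without Ctrl library 3 it was 0.091 and 0.14. CAB1 was also lost without high-boron library 2 (0.15) and LHCB2.1 without high-boron library 3 (0.28), which brought its log2 fold change to 0.57. These genes have near-identical copies. PSAG, a subunit of photosystem I, was the remaining lower member at -0.92, and was not called without Ctrl library 2 (0.16), Ctrl library 3 (0.082) or high-boron library 3 (0.16). Chloroplast-encoded genes showed 0 calls of 72 tested (edgeR), with sums of 80450 and 28459 CPM in high-boron libraries 2 and 3 and 49222 and 40910 CPM in Ctrl libraries 2 and 3.

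Boron acts in the wall, and 1 gene of the 3 wall lists was called in footprints. The list counts here stand beside 0.463% called higher and 1.51% called lower over all genes tested. In the list of pectin and rhamnogalacturonan II synthesis 0 of 23 tested genes were called (median 0.11), and in cellulose synthesis 0 of 11 (median 0.17, edgeR). RGXT3, a relative by name of members of the pectin list, was not on it and was called lower at -1.21 (adjusted p = 0.025, edgeR). Both high-boron libraries lay above both Ctrl libraries for 7 of the pectin genes and 3 of the cellulose genes, and below them for 1 and 0, beside the 18.3% and 18.0% over all genes. Of 36 wall-loosening genes only XTH15, a xyloglucan endotransglucosylase, was called, while for 15 both high-boron libraries lay above both Ctrl libraries and for 2 below. XTH15 had 80.7 and 107 CPM at high boron and 33.8 and 49.3 CPM in Ctrl, and it was not called without Ctrl library 2 (adjusted p = 0.14, edgeR) or high-boron library 3 (0.066). Aquaporins, the water channels, had 0 calls of 18 (edgeR), yet both high-boron libraries lay above both Ctrl libraries for 14 of them, with a median of 0.34. PIP2A, the aquaporin with the smallest p, had 549 and 524 CPM at high boron and 331 and 378 CPM in Ctrl (log2 fold change 0.60, adjusted p = 0.13 by edgeR).

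The list counts that follow stand beside 1.51% called lower and 0.463% called higher over all genes tested. The unfolded protein response list, chaperones of the endoplasmic reticulum, had 1 lower member of 16, BIP3, at -1.04. Its median was -0.18, and for 7 of the 16 both high-boron libraries lay below both Ctrl libraries, beside 18.0% of all genes tested. In mRNA 7 of the 16 were called lower and 0 higher, beside 4.55% and 4.50%. The heat shock list had 1 lower member of 9, HSP90.1, at -1.0. BIP3 was not called without Ctrl library 3 or high-boron library 2 (adjusted p = 0.12 and 0.28, edgeR), nor without Ctrl library 2 (0.055). HSP90.1 was not called without Ctrl library 3 (0.076) or high-boron library 2 (0.16). In the auxin list only WES1 (GH3.5), which conjugates auxin to amino acids, was called of 20, at 0.80, and its adjusted p was 0.21 without Ctrl library 2, 0.072 without Ctrl library 3 and 0.17 without high-boron library 3. The lists for cytosolic ribosomal proteins (30 tested), the cell cycle (20), DNA damage (14), oxidative stress (16), ethylene (22), glucosinolates (30), phenylpropanoids (15), sulfur deficiency (13), phosphate starvation (14), iron deficiency (7), SAUR genes (43) and mRNA surveillance (12) had 0 calls in edgeR. Over all genes, 2008 had an unadjusted p under 0.05.

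The companion mRNA comparison shows which genes called in footprints were also called in mRNA. A gene without an mRNA call is not shown to have unchanged mRNA. Of the 82 higher genes 79 were tested in mRNA, and 46 of these (58.2%) were also called higher, 0 lower and 33 in neither direction. Of the 268 lower genes 266 were tested, and 172 (64.7%) were also called lower, 79 in neither direction and 15 in the opposite direction, higher. The mRNA estimate had the sign of the footprint change for 74 of the 79 and 227 of the 266. The medians over the tested genes were 1.18 in footprints and 0.83 in mRNA for the higher set, and -1.15 and -0.89 for the lower set. A test of the difference itself, the interaction of assay and boron over 12 libraries, called 121 genes lower relative to mRNA (0.699% of 17306) beside the 6 higher. Of the 121, 40 were also called lower in footprints and 81 were called higher in mRNA, while 1 was called lower in mRNA. Their median log2 fold change was -0.79 in footprints and 0.42 in mRNA.

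**Figure D5:**
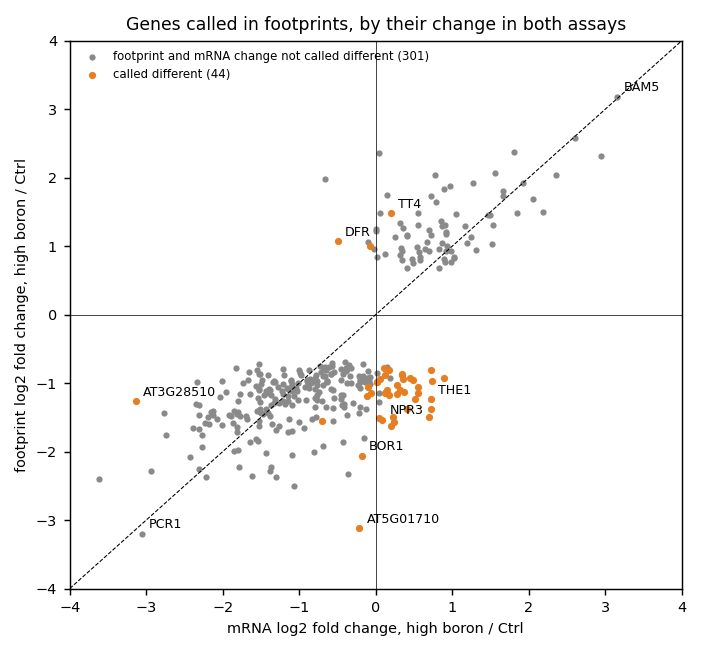
Footprint against mRNA log2 fold change (high boron over Ctrl) for the 345 genes called in footprints and tested in both assays. The 44 genes in orange had footprint and mRNA changes that were called different, and 40 of these were called lower relative to mRNA and lie below the dashed line. The dashed line marks equal change.

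AT5G01710, which has no name in RefSeq, showed the lowest footprint change relative to mRNA. Its footprints were at 2.00 and 1.23 CPM at high boron and 14.0 and 15.8 CPM in Ctrl, which rest on 27 and 9 counts at high boron. Its mRNA was at 56.7 and 55.3 CPM at high boron and 66.8 and 63.2 CPM in Ctrl. The footprints were far lower and the mRNA close, and the log2 change relative to mRNA was -2.89 ± 0.26 (adjusted p = 2.2e-05 by edgeR). Beside Ctrl libraries that both comparisons share, its footprints changed by -3.12 at high boron and by 1.67 at low boron. BOR1 followed the same form, with mRNA of 42.0 and 44.5 CPM at high boron and 45.7 and 52.7 CPM in Ctrl, and a change relative to mRNA of -1.87 ± 0.23 (adjusted p = 0.00062 by edgeR). Both calls held under every alternative but the strict filter, which tested neither gene.

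In 15 genes, picked out after their values were seen, footprints were called lower while mRNA was called higher, and the difference was called for each. Their footprint changes ran from -1.50 to -0.81 and their mRNA changes from 0.35 to 0.89. THE1, a receptor kinase that senses damage to the cell wall, had footprints of 30.4 and 32.6 CPM at high boron and 74.6 and 73.9 CPM in Ctrl. Its mRNA was 95.1 and 100 CPM at high boron and 56.7 and 62.1 CPM in Ctrl. Neither assay had overlapping groups, and they pointed in opposite directions, with a change relative to mRNA of -1.96 ± 0.17 (adjusted p = 2.2e-05 by edgeR). AT5G58950 had footprints of 16.4 and 12.9 CPM at high boron and 40.6 and 35.9 CPM in Ctrl. Its mRNA was 213 and 204 CPM at high boron and 129 and 125 CPM in Ctrl. Again both high-boron libraries were lower in footprints and higher in mRNA.

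The other 13 hold several regulators. EXO70E2, a subunit of the exocyst that tethers secretory vesicles, had footprints of 7.63 and 5.76 CPM at high boron and 16.3 and 19.4 CPM in Ctrl. ckl7 and ckl5, casein kinase I-like proteins, changed by -1.15 and -1.12 in footprints and by 0.55 and 0.37 in mRNA. RAP2.7 (TOE1), a repressor of flowering, changed by -0.92 in footprints and 0.89 in mRNA, and ENP (NPY1), which acts in auxin-dependent organ formation, by -1.06 and 0.55. SHA1, a gene of the shoot apical meristem, and XBAT35, a ubiquitin ligase, changed by -1.24 and -0.93 in footprints. BOR2 and 6 genes with no RefSeq name (AT3G28690, AT4G30020, AT5G14720, AT2G27980, AT3G23310 and AT5G58950, shown above) make up the set with THE1. The call relative to mRNA held under every alternative for 14 of the 15, the exception being BOR2, which lost it without Ctrl footprint library 2, high-boron footprint library 3, Ctrl RNA library 2 or high-boron RNA library 3. The footprint call alone held under every alternative for THE1, AT5G58950, EXO70E2 and SHA1.

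Besides those already described, some of the 40 genes called lower both in footprints and relative to mRNA are given here. They were picked out after their values were seen and do not stand for the rest. The rest include AT2G24020, AT5G48790, AT5G47210 and MAG1. NPR3, a salicylate receptor that represses defence genes, had footprints of 8.96 and 4.52 CPM at high boron and 19.9 and 21.0 CPM in Ctrl. Its mRNA was 40.4 CPM in both high-boron libraries and 36.7 and 39.5 CPM in Ctrl, and the change relative to mRNA was -1.60 ± 0.27 (adjusted p = 0.0085 by edgeR). SPL14, a transcription factor of plant architecture, had footprints of 41.2 and 37.1 CPM at high boron and 91.2 and 86.0 CPM in Ctrl, with an mRNA change of 0.17. Both genes were lower in footprints with nearly level mRNA, and both kept their calls under every alternative. SNC1, an immune receptor, LRR XI-23 (RLK7), a receptor kinase, and CPK5, a calcium-dependent kinase of immune signalling, changed by -0.88, -0.98 and -0.78 in footprints and by 0.12, 0.01 and 0.10 in mRNA. The calls relative to mRNA of these 3 were lost in several fits that left out a library, with adjusted p up to 0.17, 0.099 and 0.18 over the alternatives.

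Rises relative to mRNA were few, and some came from a fall of mRNA. BT2, a scaffold protein that responds to sugar and nitrogen, had footprints of 313 and 242 CPM at high boron and 238 and 398 CPM in Ctrl. Its mRNA was 24.7 and 33.7 CPM at high boron and 107 and 201 CPM in Ctrl. Footprints of the groups overlapped while the mRNA was well apart, and the change relative to mRNA was 2.2 ± 0.38 (adjusted p = 0.010 by edgeR, not called without Ctrl RNA library 3 or high-boron RNA library 2, with adjusted p up to 0.080). AT3G28510 was called lower in footprints (-1.27) and more so in mRNA (-3.14), so it was called higher relative to mRNA, with adjusted p up to 0.27 over the alternatives.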

How the data were processed

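The deposited tables hold raw counts per coding sequence, P-sites for footprints and reads for mRNA, with 1 row per gene, per the file headers and names. Bowtie2 and SAMtools are named in the submitters' processing notes. The sources used here give no versions, genome build, annotation or strand use, so no coordinates are printed. Columns give the group and a number, 2 or 3, where the labels number from 1, so columns were matched to groups only. Names come from RefSeq (TAIR 10.1 assembly), which held 27445 of 27655 IDs.

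Counts were tested in R 4.3.3 with edgeR 4.0.16 (quasi-likelihood, TMM, filterByExpr, 3 groups of an assay in 1 fit, Benjamini-Hochberg, threshold 0.05). Footprints relative to mRNA were the interaction term of 1 fit over 12 libraries. The SE is the absolute log2 fold change over the square root of F. The common biological variation (BCV) was 14.9% for footprints and 6.92% for mRNA. On simulated data with the footprint design, 17534 genes were tested and only a small set of genes was changed. Of these changes, 45.8% of 2-fold and 91.9% of 4-fold ones were recovered, with 13 false calls. The 13 stand beside the recovered genes of that small set, not beside all genes tested. Library numbers were not treated as pairs: deviations of equal-numbered libraries of the 2 groups correlated at -0.01 in footprints and 0.08 in mRNA. Low boron correlated with Ctrl at 0.21 in footprints and 0.02 in mRNA, and with high boron at 0.15 and -0.02. In each footprint group, library 2 had more counts and a larger share of chloroplast-encoded genes than library 3. Whether equal numbers share a batch was not tested.

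The gene lists were chosen with earlier results of these data known. The naming rule took the 12 largest rises and falls (called, mean of at least 2 CPM, groups not overlapping). It also took the 6 smallest p-values and the 6 genes with the most footprints per direction, and all boron transport and AUG-stop genes. Up to 4 called members of other lists and the 6 largest changes relative to mRNA per direction were taken too. Members of families gathered by symbol, remaining salicylate and aquaporin genes, neighbours, genes called in both footprints and relative to mRNA, and the 15 genes of opposite direction were added after their values were seen. So were PDF1.3 and the wall genes outside the lists, which are not among the named values counted below. Alternatives were DESeq2 1.42.0 and its size factors, limma 3.58.1 voom, no filter, a strict filter (mean of 50 counts), organelle genes removed, 2 groups only, a replicate block and each library left out.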

Additional observations from a re-analysis of the deposited data

How the results depend on the processing

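Of 135 footprint calls of named genes, 40 held under every alternative that tested the gene, and 0 of 585 named values reversed as a call. Called footprints numbered 82 higher and 268 lower. They were 191 and 477 with no filter, 47 and 162 with the strict filter, and 137 and 360 with the replicate block, where equal numbers were not shown to be pairs. With 2 groups only they were 64 and 196, of 17160 genes tested. Leaving out 1 library gave 18 to 78 higher and 94 to 232 lower genes, and fewest without Ctrl library 2 (higher) and without high-boron library 2 (lower). Called mRNA numbered 829 higher and 838 lower, 401 and 526 with DESeq2 and 545 lower with 2 groups only. Leaving out 1 library gave 441 to 909 higher and 343 to 985 lower. Relative to mRNA, the 6 higher genes were 14 with DESeq2, 3 with the strict filter, 1 with 2 groups only and 13 with the replicate block, and the 121 lower genes were 57 with 2 groups only. Leaving out 1 library gave 1 to 35 higher and 35 to 176 lower genes. The cause of these shifts was not tested. Where a left-out library leaves a group with 1 sample, that sample is assumed to vary like the other groups. DESeq2 gave no adjusted p for 31 named values. The simulated fits recovered 45.8% of 2-fold changes, so a gene without a call is not shown to be unchanged.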
